A study of Mus musculus with 3 samples.

Results

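The genes described here are 10 stem cell and pluripotency factors, *Prom1*, *Lgr5*, *Sox2*, *Sox9*, *Nanog*, *Pou5f1*, *Klf4*, *Bmi1*, *Cd24a* and *Ascl2*, chosen by name as genes used to mark or define stem cells. They were found through the RefSeq accession of each probe, and all 10 were on the array, with 15 of the 32994 named probes and 10 of the 22911 named genes. Expression was measured in 3 murine cell lines from BALB/c females, with 1 single-colour Agilent array (Cy3) per line and 3 arrays in all. Colon26 is a colon adenocarcinoma line, and the other lines are sublines of it. LuM1 is labelled as high-metastatic and NM11 as low-metastatic, while the design text of the series calls NM11 non-metastatic. All 3 lines were grown in the same medium, RPMI1640 with 10% FBS and antibiotics, were cultured for 3 days and received no other treatment in the labels. The comparison asks how these factors differ between a subline that spreads, a subline that does so less, and the line both came from.

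SOX2, OCT4 (encoded by *Pou5f1*) and NANOG are transcription factors that together hold embryonic stem cells in the pluripotent state, binding their own and each other's genes, often at paired SOX and octamer motifs. KLF4 can reprogram differentiated cells together with SOX2 and OCT4, but in the normal colon it belongs to differentiated, post-mitotic epithelium. In the intestine, stem cells sit at the base of the crypts, where Wnt signalling maintains *Lgr5*, *Ascl2* and *Sox9*, and the surface proteins prominin-1 (CD133) and CD24 have been used to sort stem-like tumour cells.

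The 2 factors whose levels differed most between the lines were *Sox2* and *Nanog*. The 250 bases before their transcription start are shown because SOX2, OCT4 and NANOG bind their own and each other's genes in embryonic stem cells. The sequences are from RefSeq on the mouse assembly GRCm38.p6 and are written 5′ to 3′ in the direction of transcription. *Sox2* is at chr3:34649745-34649994 and *Nanog* at chr6:122707239-122707488, both on the plus strand. Capitals mark the octamer-like letters TTTGCAT or their reverse complement ATGCAAA, and the SOX core letters ACAAT or their reverse complement ATTGT.
Sox2: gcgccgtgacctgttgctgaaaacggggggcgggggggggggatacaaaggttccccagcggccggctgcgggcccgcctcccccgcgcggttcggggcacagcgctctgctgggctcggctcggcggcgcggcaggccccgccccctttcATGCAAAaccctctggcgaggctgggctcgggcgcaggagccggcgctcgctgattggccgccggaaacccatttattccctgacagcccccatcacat
Nanog: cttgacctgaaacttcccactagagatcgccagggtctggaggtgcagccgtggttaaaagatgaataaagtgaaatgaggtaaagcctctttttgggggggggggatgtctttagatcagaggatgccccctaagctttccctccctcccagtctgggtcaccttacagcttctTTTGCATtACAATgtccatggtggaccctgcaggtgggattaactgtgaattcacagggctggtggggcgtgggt
The *Nanog* window held the octamer-like letters 75 bases before the start and the SOX core letters 67 bases before it, on the same strand and separated by 1 base. Of all 32851 windows of the same length, 4.125% held the octamer-like letters on either strand, 27.66% held the SOX core, and 14 windows (0.04262%) held both in this order within 3 bases on 1 strand. A second listed start of *Nanog* has a window that overlaps the first and holds the same pair. The *Sox2* window held the octamer-like letters on the opposite strand, 99 bases before the start, and neither ACAAT nor ATTGT. Other forms of the SOX motif, and motifs of NANOG, were not searched for. Of the 10 factors, 7 had a listed window, and *Lgr5*, *Sox9* and *Cd24a* had none. SOX core letters without the octamer-like letters were also in a window of *Pou5f1* and in that of *Ascl2*. GC content was 72% in the *Sox2* window with 27 CpG sites, 74% in that of *Klf4* with 32, 70.4% in that of *Bmi1* with 21 and 67.6% in that of *Ascl2* with 19. Windows of *Prom1* had 50.8% with 3 sites and 59.2% with 9, and those of *Pou5f1* 62% with 8 and 45.6% with 6. The *Nanog* window had 52% GC, close to the median of 52.4% over all windows, and 3 CpG sites against a median of 6. A match to these letters is a description of the sequence, and binding was not measured.

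Signals are scanner intensities after background subtraction, scaled so that the 75th percentile of every array was 585.1, and each is given with the error that the scanner software assigned to it. This error is not a replicate error. A line had 1 array, so no difference could be checked against replicates or tested, and precision is limited by this number of arrays. A signal counts as detected where the scanner software marked the spot as well above background. The lowest detected signal was 26.4 in Colon26, 20.1 in LuM1 and 19.6 in NM11. Of all named genes, 56.9% were detected in Colon26, 59.9% in LuM1 and 59.1% in NM11. In cultured cells, too, fewer cells that express a gene and less of its RNA per cell cannot be told apart. The labelled origin was checked against 14 markers of colon epithelium. Of these, 4 were detected in Colon26, 5 in LuM1 and 4 in NM11, and *Cdh1*, *Cdh17*, *Cdx1*, *Fabp1*, *Krt18*, *Krt19*, *Muc2*, *Tff3* and *Vil1* were detected in none. *Krt20*, a keratin of differentiated colon epithelium, had a signal of 651 in Colon26, 54.5 in LuM1 and 157 in NM11. The colon homeobox factor *Cdx2* had 443, 232 and 167 in the same order, the galectin *Lgals4* 198, 71.7 and 68.2, and the keratin *Krt8*, highest in LuM1, 28.9, 108 and 37.1. *Epcam* was detected in LuM1 only, at 28.0. The summed signal of the 14 markers was 1321 in Colon26, 493 in LuM1 and 430 in NM11. The summed signal of 7 fibroblast markers was 66319, 35900 and 105807 in Colon26, LuM1 and NM11, but its members differed in opposite directions. *Col1a2*, a collagen I chain, had 59896, 49.6 and 85275, while the proteoglycan gene *Dcn* was not well above background in Colon26 and had 27503 in LuM1 and 9599 in NM11. In LuM1 relative to Colon26, 3 of 6 fibroblast markers compared were at least 2-fold higher and 2 lower, beside 12.9% and 11.7% of all genes. The higher ones were *Dcn*, *Pdgfra* (218 in Colon26, 3965 in LuM1 and 1286 in NM11) and *Col3a1* (294, 1170 and 2655). The summed signal in the same order of lines was 5694, 7379 and 4804 for 5 haematopoietic markers and 51.3, 53.0 and 78.3 for 4 endothelial markers. Of the haematopoietic markers, *Ptprc*, the pan-leukocyte marker, was detected in none. *Itgam* and *Cd3e* were detected in every line, at 5027, 6818 and 4251 and at 628, 509 and 553. The part of any of these in the results was not tested.

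Of the 10 factors, *Sox2*, *Nanog*, *Pou5f1*, *Klf4*, *Bmi1* and *Sox9* were detected in all 3 lines by their brightest probe, and *Prom1*, *Lgr5*, *Cd24a* and *Ascl2* were detected in none. Among all named genes, 53.4% were detected on all 3 arrays and 35.3% on none. By probe, 8 of the 15 were detected on all arrays and 7 on none, so that no probe of a factor was detected in some lines only. No value of a factor carried the scanner's mark for an outlier or a saturated spot.

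**Figure D1:**
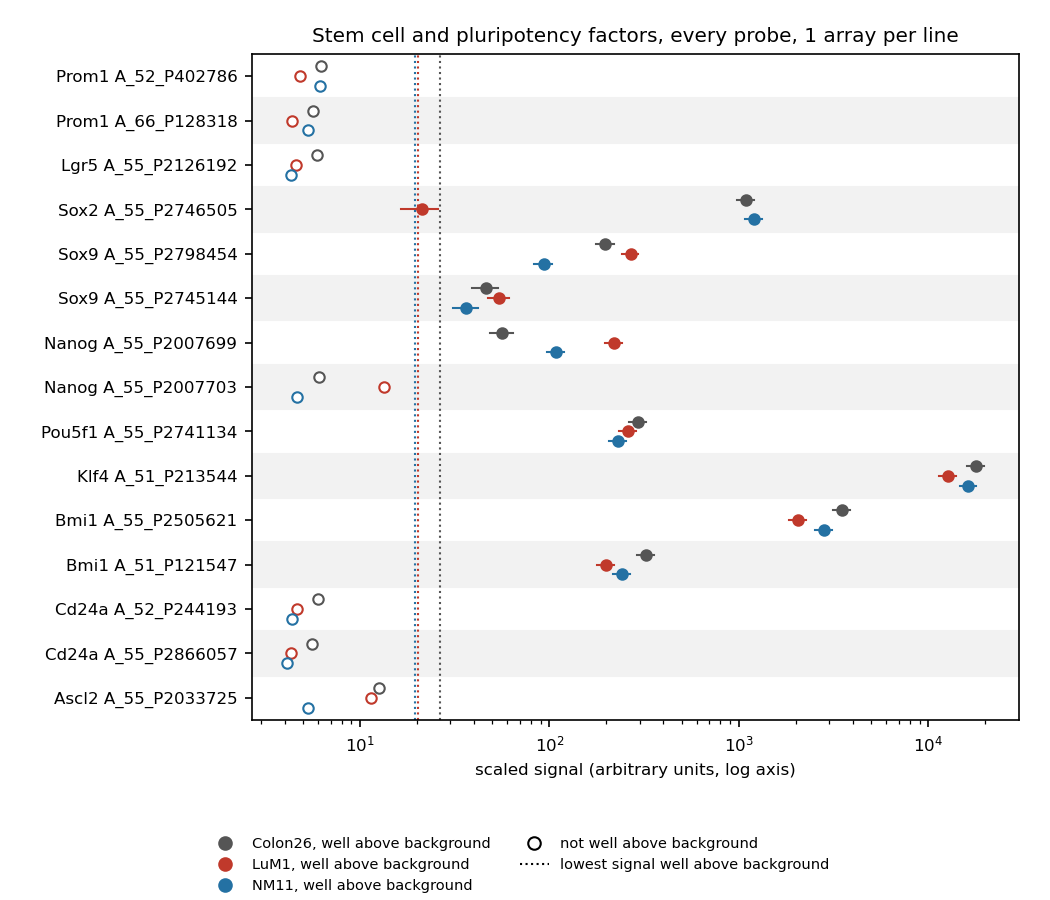
Scaled signal (75th percentile of each array set to 585.1, log axis) of every probe of the 10 factors in Colon26, LuM1 and NM11, 1 array each, with the scanner software's error as bars on detected spots, open symbols for spots not well above background and dotted lines at the lowest detected signal of each array. *Sox2* is at 1087 in Colon26 and 1202 in NM11 but at 21.1 in LuM1, and all probes of *Prom1*, *Lgr5*, *Cd24a* and *Ascl2* are open.

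*Sox2* showed the widest range of the 6 detected factors, with high signals in 2 lines and a signal at the edge of detection in LuM1. Its probe (A_55_P2746505) gave 1087 ± 109 in Colon26, 21.1 ± 4.64 in LuM1 and 1202 ± 120 in NM11. The LuM1 signal lay below both others by far more than the scanner error, while Colon26 and NM11 overlapped within it. On the log2 scale LuM1 was -5.69 (scanner error 0.35) relative to Colon26, a 51.5-fold lower signal, and -5.83 (0.35) relative to NM11, a 56.96-fold lower signal. NM11 over Colon26 was 0.15 (scanner error 0.20), which turned to -0.34 when arrays were scaled to *Hprt*, a gene of purine salvage used as a reference, and was also below 0 when they were scaled to the spike-ins. Among the 12245 genes detected on all 3 arrays, 9, *Sox2* among them, were at least as low in LuM1 relative to both other lines. Genes not detected in LuM1 were left out of this rank, whatever their level in the other lines.

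The LuM1 signal of *Sox2* was 1.05 times the lowest detected signal of that array, so the size of the ratio rests on a spot close to background. The spot's median pixel was 69.5 as scanned, against a local background of 30. With another background correction (normexp with an offset of 50) the log2 ratios were smaller, -3.81 relative to Colon26 and -3.91 relative to NM11, and with quantile normalization they were -5.80 and -5.91. The spots around the *Sox2* spot, up to 3 away on each side, were detected in 23 of 47 cases in Colon26, 30 of 47 in LuM1 and 24 of 47 in NM11, and none was marked as an outlier.

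*Sox2* lies within *Sox2ot*, a long non-coding RNA gene transcribed from the same strand, which had 2 probes on the array that disagreed. The first (A_52_P389324) gave 84.5 ± 10.0 in Colon26 and 73.6 ± 8.35 in NM11 and was not well above background in LuM1 (4.09), at least 4.20-fold lower than Colon26 and at least 3.65-fold lower than NM11. The second (A_52_P48853) was detected in LuM1 only, at 51.6 ± 6.71, against 5.49 in Colon26 and 4.04 in NM11, neither of them well above background. Thus by 1 probe of the host gene LuM1 was below the other lines, as for *Sox2*, and by the other it was above them. Which transcripts each probe reads was not tested.

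By the distance between centred log2 signals over the 3 arrays, the genes nearest to *Sox2* among 12244 others detected on all arrays were *Car6*, a secreted carbonic anhydrase (distance 0.28), *Mgp*, matrix Gla protein (0.66), and *Gask1b*, a Golgi-associated protein (0.76). *Car6* had signals of 4795 in Colon26, 70.9 in LuM1 and 4412 in NM11, and its LuM1 signal was above the lowest detected signal of 20.1. *Mgp* had 4500, 160 and 8097, and *Gask1b* 5220, 101 and 11004, in the same order. These genes were picked for their likeness to *Sox2* over the 3 arrays, so their low values in LuM1 follow from the choice. The likeness is a description.

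*Nanog*, the homeobox factor of the pluripotent state, was highest in LuM1, where *Sox2* was lowest, and lowest in Colon26. Its brighter probe (A_55_P2007699) gave 56.3 ± 7.96 in Colon26, 220 ± 22.4 in LuM1 and 108 ± 11.54 in NM11. The 3 lines did not overlap within the scanner error. LuM1 was higher than Colon26 by 1.97 on the log2 scale (scanner error 0.25, 3.91-fold) and higher than NM11 by 1.02 (0.21, 2.03-fold). NM11 was higher than Colon26 by 0.94 (0.26, 1.92-fold). The Colon26 signal was 2.13 times the lowest detected signal of that array, so the ratios to Colon26 rest on a spot near background. With normexp they were smaller, 1.21 for LuM1 and 0.53 for NM11. Under 7 other scalings and corrections the difference of LuM1 from Colon26 lay between 1.21 and 2.41, that of NM11 from Colon26 between 0.45 and 1.01, and that of LuM1 from NM11 between 0.69 and 1.61. The other probe of *Nanog* (A_55_P2007703) was not well above background on any array, at 6.09, 13.4 and 4.64 in Colon26, LuM1 and NM11, so that the difference rests on 1 probe. *Nanog* has processed copies in the mouse genome, and whether the brighter probe reads *Nanog* alone was not tested.

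*Pou5f1*, which encodes OCT4, differed by less than 2-fold between the lines. Its signal was 294 ± 29.9 in Colon26, 259 ± 26.2 in LuM1 and 230 ± 23.3 in NM11. LuM1 lay within the scanner error of both other lines, at -0.19 (0.21) relative to Colon26 and 0.17 (0.21) relative to NM11 on the log2 scale. The first of these turned to 0.26 in the authors' processed values. NM11 was at -0.36 (0.21) relative to Colon26, less than 2-fold. With scaling to *Hprt* NM11 was at -0.85 relative to Colon26, and LuM1 at 0.76 relative to NM11, both beyond the scanner error. *Pou5f1* also has processed copies, and the reading of its probe was not tested either.

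*Klf4*, the zinc-finger factor of differentiated colon epithelium, had high signals in all lines, 17851 ± 1785 in Colon26, 12728 ± 1273 in LuM1 and 16315 ± 1632 in NM11. LuM1 was at -0.49 (scanner error 0.20) relative to Colon26 and NM11 at -0.13, within the error. LuM1 was at -0.36 relative to NM11, which turned to 0.23 with scaling to *Hprt* and was also above 0 in the authors' processed values. All 3 differences were under 2-fold.

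*Sox9*, the SOX factor of crypt stem and progenitor cells, was the only factor whose sublines lay on opposite sides of Colon26 by more than the scanner error, which held for its brighter probe only. That probe (A_55_P2798454) gave 197 ± 20.6 in Colon26, 268 ± 27.1 in LuM1 and 93.4 ± 10.2 in NM11. The signal of NM11 was the lowest and that of LuM1 the highest, with no overlap within the scanner error. On the log2 scale LuM1 was higher than Colon26 by 0.44 (scanner error 0.21, 1.36-fold), and NM11 was at -1.08 (0.22) relative to it, a 2.11-fold lower signal. LuM1 was higher than NM11 by 1.52 (0.21, 2.87-fold). The other probe (A_55_P2745144) gave 46.3 ± 7.17, 54.1 ± 6.83 and 36.4 ± 5.40 in Colon26, LuM1 and NM11. It had the same order with smaller differences, 0.22 (0.29) for LuM1 over Colon26, -0.35 (0.31) for NM11 over Colon26 and 0.57 (0.28) for LuM1 over NM11, none of them 2-fold. The call of *Sox9* in NM11 thus depends on the probe, and with normexp it was -0.71.

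The other crypt factors were not detected. *Lgr5*, the R-spondin receptor that marks crypt base stem cells, was listed at 5.89 in Colon26, 4.56 in LuM1 and 4.31 in NM11, and none of these spots was significantly above background. Where a spot is not significantly above background, the scanner software writes its error in place of a signal, so such values carry no order. *Ascl2*, the Wnt-driven bHLH factor of the same cells, came closer to detection. Its spots were significantly, but not well, above background, at 12.6 ± 6.04 in Colon26, 11.4 ± 4.72 in LuM1 and 5.33 ± 4.30 in NM11. All 3 lay under the lowest detected signal of their array, and no ratio is given.

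*Bmi1*, the RING-finger subunit of Polycomb repressive complex 1 that maintains self-renewal in several tissues, was highest in Colon26 and lowest in LuM1 by both of its probes. The brighter (A_55_P2505621) gave 3507 ± 351 in Colon26, 2046 ± 205 in LuM1 and 2819 ± 282 in NM11. The other (A_51_P121547) gave 322 ± 32.7, 198 ± 20.3 and 242 ± 24.6. The probes thus had the same order, with LuM1 at -0.78 and -0.70 relative to Colon26 and NM11 at -0.32 and -0.41 (log2, scanner errors of 0.20 for the brighter and 0.21 for the other probe). LuM1 was at -0.46 and -0.29 relative to NM11, and the first of these turned to 0.13 with scaling to *Hprt*. None of the 6 differences reached 2-fold.

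The surface markers were not detected by any probe. *Prom1*, which encodes CD133, had 2 probes, listed at 6.24 and 5.65 in Colon26, 4.84 and 4.37 in LuM1, and 6.16 and 5.31 in NM11. Only the NM11 spots were significantly above background, and none was well above it. *Cd24a*, which encodes a small glycosylphosphatidylinositol-anchored sialoglycoprotein, was listed at 5.98 and 5.58 in Colon26, 4.66 and 4.31 in LuM1, and 4.39 and 4.10 in NM11, none of them significantly above background. These values say that the RNA was not detectable with these probes on these arrays, not that it was absent.

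**Figure D2:**
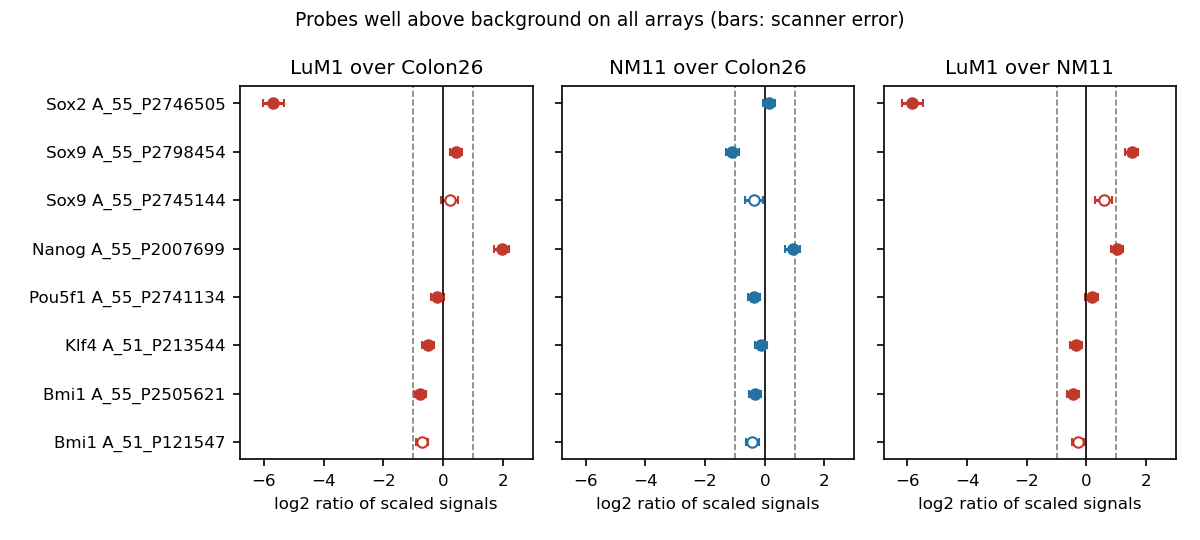
Log2 ratio of the scaled signals of the 8 probes detected on all arrays for LuM1 over Colon26, NM11 over Colon26 and LuM1 over NM11, with the propagated scanner error as bars, open symbols for the dimmer probe of a gene and dashed lines at 2-fold. *Sox2* lies at -5.69 and -5.83 in the ratios of LuM1 and near 0 in that of NM11 over Colon26, and *Nanog* is above 0 in all 3.

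Counted at 2-fold or more by the brightest probe, 6 factors could be compared in each pair of lines. In LuM1 relative to Colon26, 1 factor was higher (*Nanog*), 1 was lower (*Sox2*) and 4 were within 2-fold, while among all genes compared 12.9% were higher and 11.7% lower. In NM11 relative to Colon26, none was higher, 1 was lower (*Sox9*) and 5 were within 2-fold, beside 8.17% of all genes higher and 7.74% lower. In LuM1 relative to NM11, 2 were higher (*Sox9* and *Nanog*), 1 was lower (*Sox2*) and 3 were within 2-fold, beside 11.1% higher and 8.5% lower. Each count covers only 6 factors, and nothing particular to them is read from it. The median log2 ratio of the factors was -0.34, -0.22 and -0.09 in the 3 comparisons, and that of all genes was -0.13, -0.02 and -0.11. The comparisons share arrays, so they are not independent of each other.

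**Figure D3:**
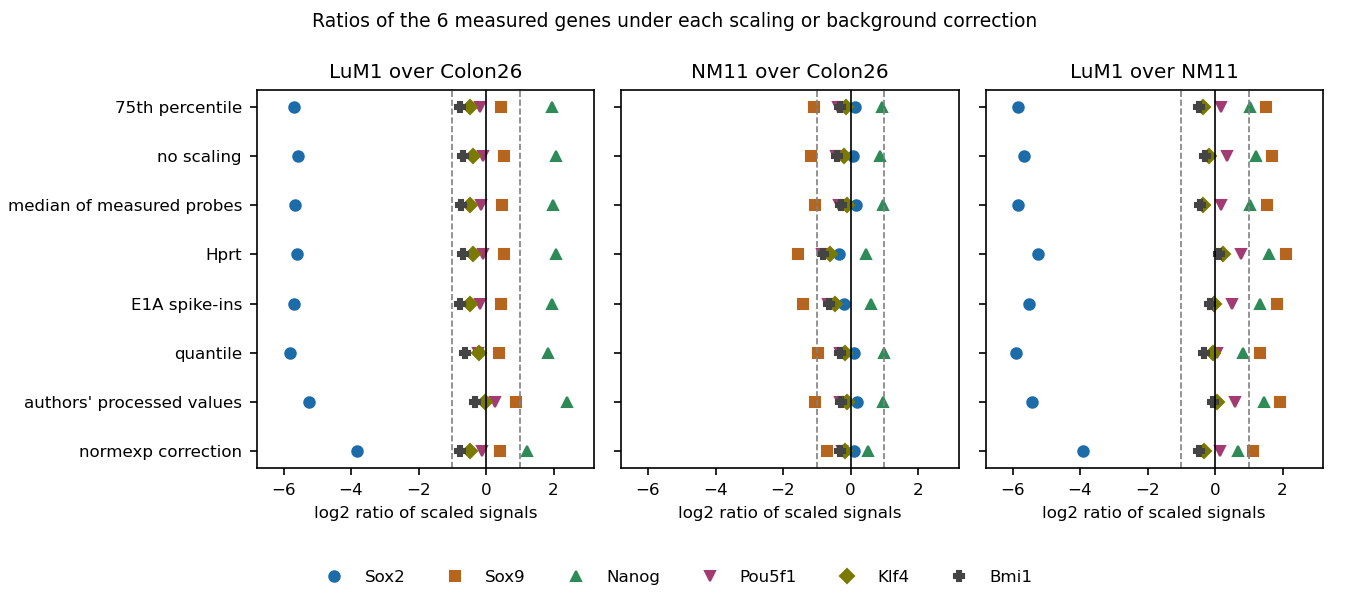
Log2 ratio of the brightest probe of the 6 detected factors in each comparison under the 75th percentile scaling and 7 other scalings and corrections. *Sox2* stays at -3.81 or lower in LuM1 over Colon26, *Nanog* stays above 0 throughout, and the small ratios of *Pou5f1*, *Klf4* and *Bmi1* cross 0 under some settings in at least 1 comparison.

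The genes around these factors were described with lists of the same pathways and families. Their counts stand beside the shares of all genes past 2-fold, 12.9% higher and 11.7% lower in LuM1 over Colon26, 8.17% and 7.74% in NM11 over Colon26, and 11.1% and 8.5% in LuM1 over NM11. Medians are over genes detected in both lines, and a second median adds the genes with a bound at that bound. Of 15 other crypt stem cell and Wnt target genes on the array, 9 were detected in Colon26, 10 in LuM1 and 9 in NM11. In LuM1 relative to Colon26, 1 of 10 was at least 2-fold higher and 3 were lower, and the median log2 ratio was -0.53 over 9 genes and -0.39 over 10 with bounds, which adds *Hopx*. In NM11 relative to Colon26, 0 of 9 passed 2-fold in either direction (median 0.04). LuM1 relative to NM11 had 1 higher and 2 lower of 10 (median -0.45, or -0.38 with bounds). *Ephb2*, the Wnt target that positions cells along the crypt, had a signal of 1750 in Colon26, 218 in LuM1 and 1398 in NM11, at -3.004 and -2.68 (log2) in LuM1 relative to the other lines. *Cd44*, an adhesion receptor and Wnt target, had 6953, 3317 and 9723 in the same order, and *Znrf3*, a ubiquitin ligase that restrains Wnt receptors, had 436, 206 and 357. *Hopx*, a homeodomain protein of quiescent crypt cells, was detected in LuM1 only, at 184, at least 6.97-fold higher than in Colon26 and at least 9.40-fold higher than in NM11.

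Of 25 other genes of the pluripotency network, 14 were detected in Colon26, 15 in LuM1 and 16 in NM11. LuM1 relative to Colon26 had 1 of 16 higher and 2 lower (median log2 ratio -0.16, or -0.09 with bounds), NM11 relative to Colon26 had 4 of 16 higher and 1 lower (0.10, or 0.12), and LuM1 relative to NM11 had 0 of 17 higher and 3 lower (-0.21 either way). *Stat3*, the effector of LIF signalling in mouse embryonic stem cells and of many cytokines elsewhere, had a signal of 1337 in Colon26, 7224 in LuM1 and 8355 in NM11. *Dnmt3l*, a cofactor of DNA methyltransferases, had 233, 417 and 1217. *Lin28b*, which blocks maturation of let-7 microRNAs, was not well above background in Colon26 and had 33.1 in LuM1 and 114 in NM11, in NM11 at least 4.32-fold higher than in Colon26. *Dppa3*, a maternal and germ cell factor, was detected in NM11 only, at 57.8. At the scaling used here, these 4 genes were highest in NM11. For *Stat3*, however, LuM1 was at only -0.21 (log2) relative to NM11. The median of all genes in LuM1 over NM11 moved up by more than this with *Hprt* (0.59), the spike-ins (0.32) and the authors' values (0.41). The order of *Stat3* between LuM1 and NM11 thus depends on the scaling. The other genes of the list past 2-fold in any comparison were *Myc*, *Klf2* and *Dppa2*, named after their values were seen. They were highest in Colon26 (5957, 3177 and 55.5). Of 6 markers of embryonic stem cells, 2 were detected in Colon26, 2 in LuM1 and 3 in NM11, and *Zfp42*, *Fgf4* and *Esrrb* in none.

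The Polycomb repressive complex 1 list, without *Bmi1*, held 19 genes, of which 18 were detected in every line. The gene detected in none was *Cdkn2a*, which encodes no subunit of the complex. No gene of 18 passed 2-fold in either subline relative to Colon26 (medians -0.06 in LuM1 and 0.07 in NM11), beside 12.9% of all genes higher and 11.7% lower in LuM1, and 8.17% and 7.74% in NM11. In LuM1 relative to NM11, 2 of 18 were higher, *Cbx7*, a chromodomain subunit, with 634 against 282, and *Phc1*, a polyhomeotic subunit, with 220 against 103 (median of the list -0.26).

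Of 17 other SOX genes, 7 were detected in Colon26, 9 in LuM1 and 8 in NM11. *Sox4*, a SOX factor of progenitor cells and many tumours, had 72.4 in Colon26, 2199 in LuM1 and 970 in NM11, and was at 4.93 and 3.74 (log2) in LuM1 and NM11 relative to Colon26. It was the only gene of this list at least 2-fold higher in either subline relative to Colon26 (1 of 9 in LuM1 and 1 of 8 in NM11), and none was lower. The median of the list was 0.22 in LuM1 (0.24 with bounds) and -0.06 in NM11 (0.09 with bounds). In LuM1 relative to NM11, 2 of 10 were higher, *Sox4* at 1.18 and *Sox7*, an endothelial SOX factor, which was detected in LuM1 only at 41.7. So the SOX family held a gene that was low in LuM1, *Sox2*, and another, *Sox4*, that was high in both sublines.

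Of 16 other KLF genes, 13 were detected in Colon26, 12 in LuM1 and 13 in NM11. LuM1 relative to Colon26 had 2 of 14 higher and 4 lower (median -0.16, or -0.19 with bounds), NM11 relative to Colon26 had 3 of 14 higher and 3 lower (0.11, or 0.02), and LuM1 relative to NM11 had 1 of 13 higher and 2 lower (-0.40, or -0.56). *Klf9*, a hormone-responsive KLF gene, had 2268 in Colon26, 120 in LuM1 and 1019 in NM11, at -4.24 and -1.15 (log2) in LuM1 and NM11 relative to Colon26. *Klf15*, a KLF gene of metabolic tissues, had 72.2 in Colon26 and 198 in NM11 and was not well above background in LuM1. *Klf17* was detected in Colon26 only, at 128, and *Klf1*, the erythroid KLF, had 136 in LuM1 and 27.2 in NM11 and was not well above background in Colon26. *Klf4* was within 2-fold in all 3 comparisons, as were 8 of 14, 8 of 14 and 10 of 13 of the other KLF genes in LuM1 over Colon26, NM11 over Colon26 and LuM1 over NM11.

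**Figure D4:**
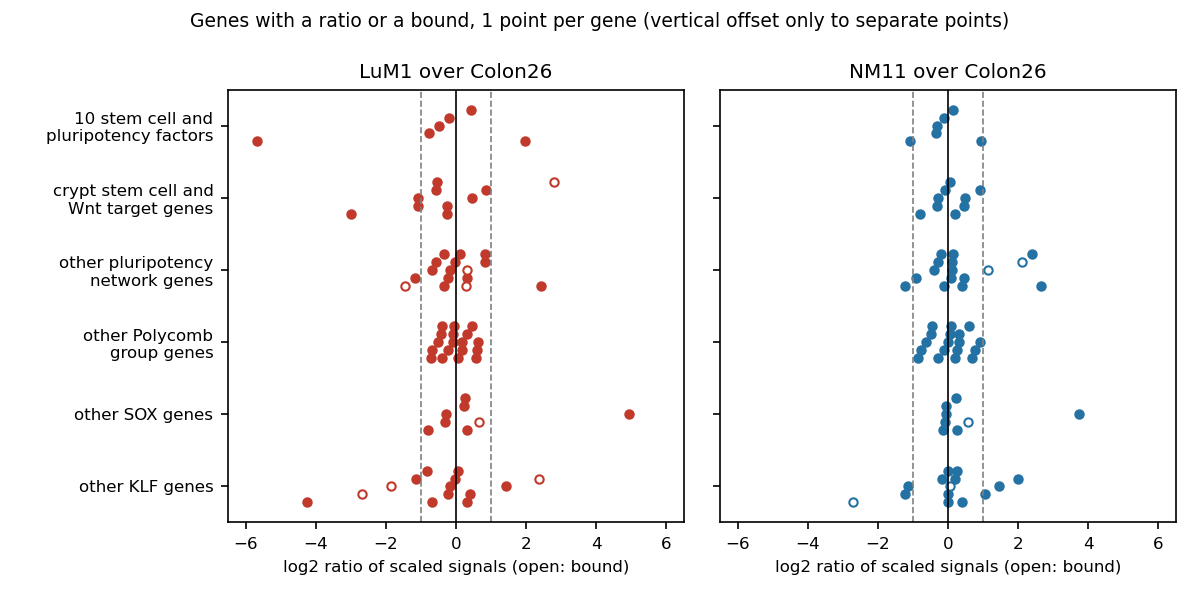
Log2 ratio of scaled signals (LuM1 over Colon26 and NM11 over Colon26) for the factors and the lists of related genes, 1 point per gene, with filled symbols for ratios, open symbols for bounds where a line was not well above background, and dashed lines at 2-fold. *Sox2* at -5.69, *Sox4* at 4.93 and *Klf9* at -4.24 stand apart in LuM1 over Colon26, and the genes of the Polycomb list lie within 2-fold in both panels, where 12.9% of all genes were higher and 11.7% lower (LuM1) and 8.17% and 7.74% (NM11).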

How the data were processed

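Gene expression was measured with 1 single-colour array (Agilent SurePrint, Cy3, 0.1 µg of total RNA) per cell line. The authors deposited intensity values for each spot from Agilent Feature Extraction 11.5.1.1 (as named in the submitters' processing notes), already corrected for background and not scaled between arrays, together with flags of 0 or 1 for other properties of a spot (outlier, saturation, above background). The authors also deposited a table of processed intensity values, which equalled the scanner signal times 1 factor per array (0.654, 0.829 and 0.706 for Colon26, LuM1 and NM11).

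From these, control and outlier spots were left out, repeated spots of a probe were averaged, and each array was scaled to the 75th percentile of all its non-control spots (581.1 in Colon26, 625.1 in LuM1 and 551.5 in NM11 as deposited). Of 56605 probes, 32994 (58.3%) were named through their RefSeq accession. The array was designed on an older assembly than the annotation, so no coordinates of probes or genes are given, and those of the upstream windows are RefSeq's own on GRCm38.p6. Each gene was read from its brightest probe (mean log2 signal over the arrays), and every probe of the 10 factors is reported. A probe not well above background gave only a bound, against the lowest detected signal or its own, whichever was higher, and no ratio was given where the bound was under 1 or both arrays were below background. Ratios were called at 2-fold or more. Spots not significantly above background were checked, and all of them held a value within 1% of their error.

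All 10 factors were named, with up to 4 genes of each related list called in any comparison (those with the largest ratio), and the 3 genes nearest to the factor with the widest range. Outside this rule, *Hprt*, *Sox2ot*, *Epcam*, *Itgam*, *Cd3e*, *Cdkn2a*, *Myc*, *Klf2*, *Dppa2* and markers detected in no line were also named. The factors and the lists were chosen with earlier results of these data known. The lists of pluripotency, KLF and embryonic stem cell genes share members. Alternatives were other scalings (none, median, *Hprt*, 7 spike-in probes, quantile, the authors' values), normexp, other detection rules, other probe rules and a 4-fold threshold. The calculation was tested on simulated data in which only genes bright in Colon26 were changed. That test did not cover changes in dim genes or a ratio as large as that of *Sox2* in LuM1. Python 3.11.15, numpy 2.4.6, pandas 2.3.3, R 4.3.3 and limma 3.58.1 were used.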

Additional observations from a re-analysis of the deposited data

Results flagged for a closer look

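*Sox9* lay on opposite sides of Colon26 in the sublines by more than the scanner error with the brighter of its 2 probes, at 0.44 (log2) in LuM1 and -1.08 in NM11 relative to Colon26. With the other probe the values were 0.22, within the scanner error of 0.29, and -0.35. Each line had 1 array, and the difference between the sublines' ratios was not tested.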

How the results depend on the processing

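With 13 alternatives, no ratio of a factor that was called at 2-fold changed its sign. The count of factors higher in LuM1 than in Colon26 was 1, and 0 at a 4-fold threshold. The count higher in NM11 than in Colon26 was 0, and 1 with quantile normalization, where *Nanog* reached 1.01 (log2). The count lower in NM11 than in Colon26 was 1 (*Sox9*). It was 0 with quantile normalization, with normexp, with probes of a gene averaged and at 4-fold, and 2 when signals significantly above background were accepted or dim probes were not filtered, where *Ascl2* was added. The count higher in LuM1 than in NM11 was 2, and it was 1 with quantile normalization and with normexp, and 0 at 4-fold. In the other 79 combinations of a count and an alternative, the count stayed within 1.5 times its value. Counts and medians of the related lists were not repeated under the alternatives.

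Relative to the 75th percentile scaling, the median of all genes in LuM1 over Colon26 moved by 0.11 (log2) without scaling, 0.10 with *Hprt* and 0.45 in the authors' values. In NM11 over Colon26 it moved by -0.49 with *Hprt* and -0.32 with the spike-ins, and in LuM1 over NM11 by 0.18 without scaling, 0.59 with *Hprt*, 0.32 with the spike-ins and 0.41 in the authors' values. No paired analysis was possible because each line had 1 array. Among the factors, the signal over background limits *Sox2* in LuM1, *Nanog* in Colon26, the dimmer probe of *Sox9* and the 4 undetected factors.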
